A study of Gallus gallus with 6 samples.

Results

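Homeobox genes encode transcription factors that bind DNA through a homeodomain and set the identity of regions and cell types along the body axis. Outside the Hox and Cdx clusters the family includes the TALE proteins (MEIS, PBX and PKNOX), which bind DNA together with Hox proteins, and the paired, NK-like, sine, CUT, POU, LIM and zinc-finger classes. In the vertebrate gut several of these factors are known for patterning the mesenchyme and for left-right asymmetry.

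The genes described here were taken by symbol (PITX, MEIS, PBX, PKNOX, IRX, LHX, LMX, NKX, MSX, DLX, the sine genes, EMX, EVX, BARX, PRRX, ALX, ISL2, PAX, POU, TSHZ, SATB, ZEB, ZFHX, HHEX, HLX, PROX, MEOX, CUX, TGIF, HMBOX and ONECUT), without the unrelated PAXIP1 and PAXBP1, and kept if above 0 in at least 3 of 6 libraries. Of 17108 genes listed, 85 had such a symbol and 65 were kept. Among those just inside that limit, 6 genes were above 0 in exactly 3 libraries, with no library over 0.22 RPKM, the read count scaled to gene length and library size. Of the 20 left out, 3 were above 0 in 2 libraries (ALX1, LHX4 and irx2, at most 0.0537 RPKM), 6 in 1 library (at most 0.0651 RPKM), and 11 were listed at 0 throughout.

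RNA-seq was made with a strand-specific kit from 2 tissues of the gut of chick (Gallus gallus) embryos at embryonic day 5, stage HH26: the ceca, a pair of blind-ended buds, and the region labelled interceca, with 3 libraries of each. The labels name no strain, genotype or treatment and do not tell if a library is 1 embryo or a pool. The p-values therefore cover just the spread of these samples, which may be technical. Libraries held 15741991 to 22802209 reads, recovered from the steps of the RPKM values.

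Of the 65 genes, 34 reached 1 RPKM in at least 3 libraries and were tested, and 31 stayed below. In ceca, 11 of the 34 were higher (32.4%, against 13.5% of all 10678 genes tested) and 8 were lower (23.5%, against 14.1% of all genes tested), at an adjusted p under 0.05 (limma, adjusted over all genes tested). The other 15 did not pass. Libraries of the tissues did not overlap for 22 of the 34 (64.7%, against 44.1% of all genes tested), with ceca above in 12 and below in 10. On the fitted scale, from RPKM + 0.5, TSHZ1 was the only one of the 11 to be at least 2-fold higher. CUX2 came next, at a log2 fold change of 0.95 on that scale and 1.01 by the authors' deposited value. Of the 8, 4 were at least 2-fold lower, among them Six2, Nkx-6.2 and NKX1-2. The median log2 fold change (ceca over interceca, from RPKM + 0.5) was 0.00 over the 34 genes and 0.01 over all genes tested. The median of its absolute value was 0.43 over the 34 genes and 0.15 over all. Nkx-6.2 and NKX1-2 reached the 1 RPKM limit in interceca libraries alone, so a difference toward interceca was built into their selection. The count lower in ceca was 5 without interceca replicate 2.

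**Figure D1:**
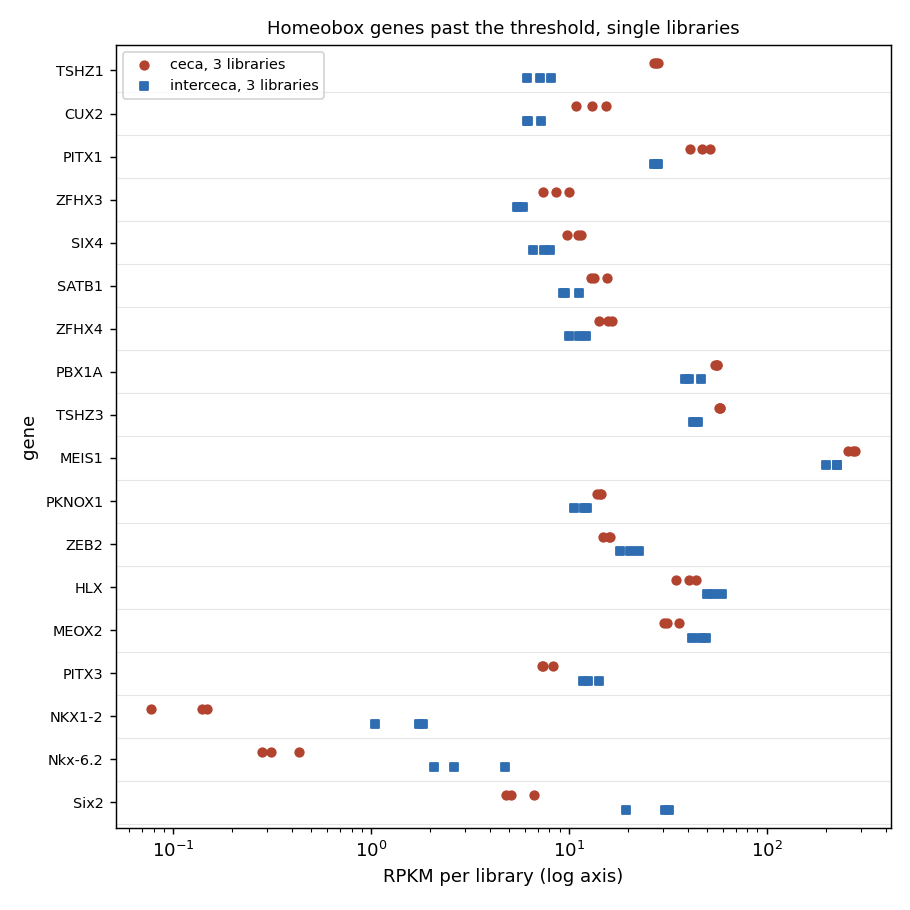
RPKM of 18 of the 19 homeobox genes past the threshold in single libraries, on a log axis, with ceca as circles above and interceca as squares below in each row. TSHZ1 lies at 27.1 to 28.4 RPKM in ceca against 6.19 to 8.14 RPKM in interceca, and Six2, at the bottom, at 4.8 to 6.71 RPKM in ceca against 19.6 to 32 RPKM in interceca.

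Marker genes of other cell types differed between the same libraries. Their counts stand beside 13.5% higher and 14.1% lower in ceca of all genes tested. Gut epithelial markers were lower in ceca for 5 of 6 tested, with a summed level of 132 to 203 RPKM in ceca against 501 to 773 RPKM in interceca, KRT8 and KRT18 being listed at 0. Smooth muscle markers were lower for 6 of 8 tested, at 311 to 347 RPKM in ceca against 623 to 654 RPKM in interceca. Mesothelial markers were higher for 4 of 6 tested and lower for 1, at 303 to 324 RPKM in ceca against 105 to 112 RPKM in interceca. Liver and pancreas markers were lower for 5 of 5 tested, at 17.2 to 23.1 RPKM in ceca against 248 to 291 RPKM in interceca. TF alone averaged 8.49 RPKM in ceca and 157 RPKM in interceca. Of the 7 markers below the 1 RPKM limit, ALB was above interceca in every ceca library (mean 0.594 against 0.415 RPKM, limma adjusted p = 0.133 with no limit). Another was below interceca in every ceca library. The rest had few or no reads, PTF1A and CPA1 being listed at 0. Neural crest markers were lower for 3 of 6 tested (3.05 to 11.3 RPKM in ceca against 16.6 to 19.8 RPKM in interceca), and neuronal markers were lower for 3 and higher for 1 of 7 tested (808 to 881 RPKM in ceca against 945 to 1009 RPKM in interceca). The counts lower of these 2 groups moved when single libraries were left out. Of the 3 lower neural crest markers, 1 reached 1 RPKM in interceca libraries alone, so 5 were tested when an interceca library was left out. For neural crest the count was 0 without interceca replicate 2 or 3, 1 without interceca replicate 1, 2 without ceca replicate 3 and 5 without ceca replicate 2. For neurons it was 0 without ceca replicate 3, 1 without interceca replicate 1 or 3 and 5 without ceca replicate 2. Most of the neuronal sum came from 1 marker, at 705 to 833 RPKM in ceca against 848 to 867 RPKM in interceca. That marker did not pass (limma adjusted p = 0.113), so the sum does not describe the 3 called lower. Endothelial markers summed to 143 to 164 RPKM in ceca against 125 to 160 RPKM in interceca, with 2 higher and 1 lower of 10 tested. Nephric markers (1 lower of 2 tested, 14.4 to 16.1 RPKM in ceca against 27.8 to 34.2 RPKM in interceca, WNT9b listed at 0), skeletal muscle markers (1 lower of 1 tested, 7.58 to 9.42 RPKM in ceca against 9.9 to 12.6 RPKM in interceca, MYF5 and MYOG listed at 0) and spinal cord markers (1 higher of 1 tested, 2.69 to 2.88 RPKM in ceca against 0.749 to 1.06 RPKM in interceca) were low. Leaving out 1 library also moved the endothelial counts (to 1 higher without any library but interceca replicate 2, and to 0 lower without ceca replicate 2 or 3 or interceca replicate 1 or 2). It ended the skeletal muscle call (without ceca replicate 1 or 2 or interceca replicate 1 or 3). The 1 lower mesothelial gene reached 1 RPKM in interceca libraries alone, and the 1 higher spinal cord gene in ceca libraries alone. Their direction was thus built into their selection, and neither was tested when 1 of those libraries was left out. Each was called in all 11 alternatives that tested it. In such tissue pieces fewer cells of a type and less RNA per cell cannot be told apart. The part of these markers in the homeobox results was not tested.

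TALE genes were the most abundant of the family. MEIS1 and MEIS2, which act with PBX and Hox proteins, and the repressors TGIF1 and TGIF2 together made up 50.4% of the summed RPKM of the 65 genes in ceca and 48.6% in interceca. MEIS1 stood at 281, 273 and 258 RPKM in ceca replicates 1 to 3, against 227, 228 and 199 RPKM in interceca replicates 1 to 3. Every ceca library lay above every interceca library, and the log2 fold change was 0.31 ± 0.07 (SE, adjusted p = 0.00905). MEIS2 was at 168, 147 and 140 RPKM in ceca against 166, 154 and 135 RPKM in interceca. Its libraries overlapped, with a log2 fold change of 0.00 ± 0.09 (adjusted p = 0.996).

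PBX1A, of the PBX family of MEIS and Hox partners, was at 54.7, 56.2 and 56.1 RPKM in ceca against 40.7, 46.5 and 38.7 RPKM in interceca. The tissues did not overlap, and the log2 fold change was 0.41 ± 0.07 (adjusted p = 0.00341). PBX3, a related cofactor, was at 46.4, 48.1 and 48.1 RPKM in ceca against 46.4, 42.9 and 47.4 RPKM in interceca, overlapping, with 0.06 ± 0.05 (adjusted p = 0.425). PKNOX1, a further PBX partner, was at 14.6, 14.4 and 13.9 RPKM in ceca against 10.7, 12.4 and 12 RPKM in interceca. All ceca libraries were above all interceca libraries (0.28 ± 0.07, adjusted p = 0.0269), but the call was lost in all leave-one-out fits except the one without interceca replicate 2 (adjusted p = 0.0346 to 0.0769). TGIF1 averaged 53.3 ± 3.23 RPKM in ceca and 61.1 ± 4.12 RPKM in interceca (SD, n = 3 each), with -0.20 ± 0.07 (adjusted p = 0.0628). Under the replicate block, which pairs same-numbered libraries, its adjusted p was 0.00947, in a range of 0.00947 to 0.179. TGIF2 averaged 85.6 ± 6.65 RPKM in ceca and 85.4 ± 6.2 RPKM in interceca. Of the 7 TALE genes tested among the 65, 3 were higher in ceca, with PKNOX1 among them, and none was lower. The shares over all genes tested were 13.5% higher and 14.1% lower. MKX, a TALE gene outside the symbols used here, was lower in ceca (-2.05 ± 0.07, adjusted p = 2.38e-06).

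PITX1 and PITX3, of the paired class, differed in direction. PITX1, known for giving the hindlimb its identity, was at 52, 40.9 and 47.1 RPKM in ceca against 28, 26.9 and 28.3 RPKM in interceca. The lowest ceca library was well above the highest interceca library, and the log2 fold change was 0.73 ± 0.08 (adjusted p = 0.00047). PITX3, known in mouse from the lens and midbrain dopamine neurons, was at 8.31, 7.32 and 7.42 RPKM in ceca against 12.5, 14.2 and 11.8 RPKM in interceca. It was lower in every ceca library than in any interceca library (-0.70 ± 0.09, adjusted p = 0.001).

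Among NK-like genes, 3 of 8 tested were lower in ceca (14.1% of all genes tested were), none was higher and 5 did not pass. Of the 3, Nkx-6.2 and NKX1-2 were tested through interceca alone, which set their direction, so the count says nothing of the class. HLX, which mouse gut mesenchyme needs for gut and liver growth, was at 44.2, 34.8 and 40.4 RPKM in ceca against 59.8, 49.8 and 53.7 RPKM in interceca. All ceca values were below all interceca values (-0.45 ± 0.10, adjusted p = 0.0111). Nkx-6.2, a patterning gene of the ventral spinal cord, was at 0.313, 0.281 and 0.435 RPKM in ceca against 2.08, 2.63 and 4.77 RPKM in interceca. Interceca replicate 3 was the highest, the tissues did not overlap, and the log2 fold change was -2.06 ± 0.27 (adjusted p = 0.00206 with no limit on low values). NKX1-2, a gene of the caudal neural plate of chick embryos, rested on few reads, with 1, 2 and 2 in ceca against 18, 13 and 25 in interceca (-1.70 ± 0.22, adjusted p = 0.000903 with no limit on low values).

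NKX2-6, a heart and pharynx gene in mouse, was at 5.92, 3.88 and 6.69 RPKM in ceca against 6.98, 5.91 and 5.95 RPKM in interceca, which overlapped (-0.20 ± 0.18, adjusted p = 0.449). HHEX, a gene of the early liver and blood vessels, was at 7.26, 5.27 and 5.46 RPKM in ceca against 7.65, 8.15 and 4.95 RPKM in interceca, also overlapping (-0.17 ± 0.19, adjusted p = 0.548). BARX1, a gene of stomach mesenchyme in mouse, was at 1.76, 2.96 and 1.05 RPKM in ceca against 2.02, 4.53 and 6.31 RPKM in interceca. The tissues overlapped (-0.95 ± 0.40, adjusted p = 0.122). Without interceca replicate 1 its adjusted p was 0.0247, and 0.328 was the highest under any alternative. BARX2B averaged 1.05 ± 0.0999 RPKM in ceca and 1.65 ± 0.401 RPKM in interceca (SD, n = 3 each), with -0.46 ± 0.18 (adjusted p = 0.0984). DLX1 was listed at 0 in ceca replicate 1 and at 1.53 and 0.998 RPKM in ceca replicates 2 and 3, against 1.38, 1.35 and 1.3 RPKM in interceca (-0.68 ± 0.46, adjusted p = 0.325). MEOX2, a Hox-related gene of mesoderm and vessels, was lower, at 36.2, 31.3 and 30.4 RPKM in ceca against 49.7, 46.7 and 41.8 RPKM in interceca. Its libraries did not overlap between tissues (-0.49 ± 0.09, adjusted p = 0.00403).

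**Figure D2:**
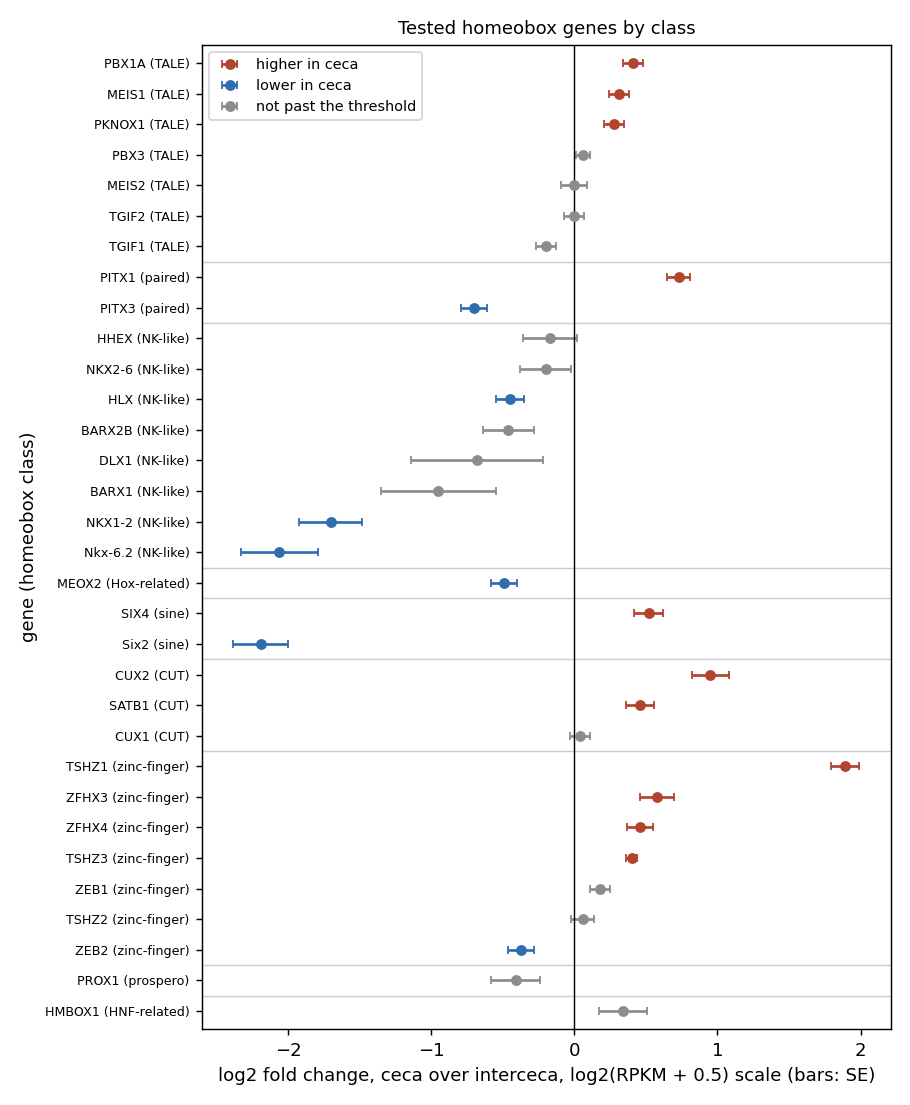
Log2 fold change, ceca over interceca from RPKM + 0.5, of 32 of the 34 homeobox genes tested, grouped by class, with bars for the SE. Points range from -2.19 for Six2 to 1.89 for TSHZ1, and none of the 8 NK-like genes tested lies to the right of 0. Of those 8, 5 did not pass, and Nkx-6.2 and NKX1-2 were tested through interceca alone, which set their side.

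Of the sine class, 2 genes were tested and were called in opposite directions. Six2, known from kidney progenitors and the pyloric sphincter in mouse, was at 6.71, 5.1 and 4.8 RPKM in ceca against 30.6, 19.6 and 32 RPKM in interceca. The lowest interceca library, replicate 2, was still above every ceca library (-2.19 ± 0.19, adjusted p = 0.000136). SIX4, which acts in muscle formation, was at 11.1, 9.8 and 11.5 RPKM in ceca against 8.01, 7.49 and 6.64 RPKM in interceca. It was higher in each ceca library than in any interceca library (0.52 ± 0.10, adjusted p = 0.0056). The log2 ratio of SIX4 to Six2 within a library averaged 0.92 ± 0.25 in ceca and -1.80 ± 0.43 in interceca (SD, n = 3 each; exact permutation p = 0.1, two-sided, with libraries permuted without regard to their numbers). That is the smallest p of 3 against 3 unpaired libraries, and 3 pairs could not go below 0.25, so neither can pass 0.05.

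In the CUT class, 2 of 4 genes tested were higher in ceca, 1 was lower and 1 did not pass, again beside 13.5% higher and 14.1% lower of all genes tested. SATB1, best known from developing T cells, was at 15.6, 13.4 and 12.9 RPKM in ceca against 11.3, 9.38 and 9.54 RPKM in interceca, with all ceca values above all interceca values (0.46 ± 0.10, adjusted p = 0.0122).

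CUX2, a marker of upper-layer cortical neurons that other tissues also express, was at 15.4, 10.9 and 13.1 RPKM in ceca against 7.22, 6.13 and 6.21 RPKM in interceca. It was higher throughout (0.95 ± 0.13, adjusted p = 0.00112). Its relative CUX1, a broadly expressed regulator of proliferation, was at 15.9, 16 and 15.4 RPKM in ceca against 14.7, 16.7 and 14.8 RPKM in interceca, overlapping (0.04 ± 0.07, adjusted p = 0.741).

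All 7 zinc-finger homeobox genes were tested, and 4 were higher in ceca, 1 was lower and 2 did not pass (of all genes tested, 13.5% were higher and 14.1% lower). TSHZ1, a teashirt gene that acts in the palate and middle ear of mouse, was at 28.4, 27.5 and 27.1 RPKM in ceca against 7.15, 8.14 and 6.19 RPKM in interceca. The ceca libraries lay close together and far above interceca (1.89 ± 0.10, adjusted p = 1.14e-05, a 3.7-fold difference on the fitted scale). TSHZ3, which smooth muscle of the mouse ureter needs, was at 57.9, 58 and 57.4 RPKM in ceca against 45.3, 43.6 and 42.5 RPKM in interceca, again without overlap (0.40 ± 0.04, adjusted p = 0.000398). TSHZ2 was at 29.6, 26.7 and 24.4 RPKM in ceca against 26.6, 25.7 and 24.6 RPKM in interceca, overlapping (0.06 ± 0.08, adjusted p = 0.588). TSHZ1 and TSHZ2 were thus about equal in ceca, with a log2 ratio of 0.04 ± 0.11 in ceca and -1.78 ± 0.16 in interceca (SD, n = 3 each; exact permutation p = 0.1, the smallest without pairing).

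ZFHX3 and ZFHX4, very large proteins with several homeodomains each, were both higher. ZFHX3 was at 7.45, 10.1 and 8.64 RPKM in ceca against 5.56, 5.9 and 5.51 RPKM in interceca (0.58 ± 0.12, adjusted p = 0.00764). ZFHX4 was at 16.6, 15.8 and 14.2 RPKM in ceca against 12.2, 11.3 and 10 RPKM in interceca (0.46 ± 0.09, adjusted p = 0.00768). Neither gene's tissues overlapped. ZEB2, a repressor of epithelial genes that neural crest cells require, was at 16.1, 14.9 and 16 RPKM in ceca against 20.4, 22.8 and 18.1 RPKM in interceca. It was lower in all ceca libraries (-0.37 ± 0.09, adjusted p = 0.0173), a call lost without ceca replicate 2 (adjusted p = 0.0591) and without interceca replicate 2 (adjusted p = 0.051). ZEB1, its relative in the same process, averaged 24.7 ± 0.913 RPKM in ceca and 21.8 ± 1.79 RPKM in interceca (SD, n = 3 each), with 0.18 ± 0.07 (adjusted p = 0.102). Its adjusted p was 0.0456 under the replicate block and 0.0494 by limma-voom from recovered reads, and otherwise up to 0.257.

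PROX1, a gene of lymphatic endothelium and liver, was at 2.02, 1.48 and 1.57 RPKM in ceca against 2.8, 1.95 and 2.49 RPKM in interceca. The highest ceca library was above the lowest interceca library (-0.41 ± 0.17, adjusted p = 0.112). By limma-voom from recovered reads its adjusted p was 0.0465, and 0.416 was the highest under any alternative. HMBOX1, a homeobox protein that binds telomeres, averaged 7.23 ± 1.02 RPKM in ceca and 5.67 ± 1.25 RPKM in interceca (SD, n = 3 each), with 0.34 ± 0.17 (adjusted p = 0.176). The replicate block gave an adjusted p of 0.0244, and 0.4 was the highest under any alternative.

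**Figure D3:**
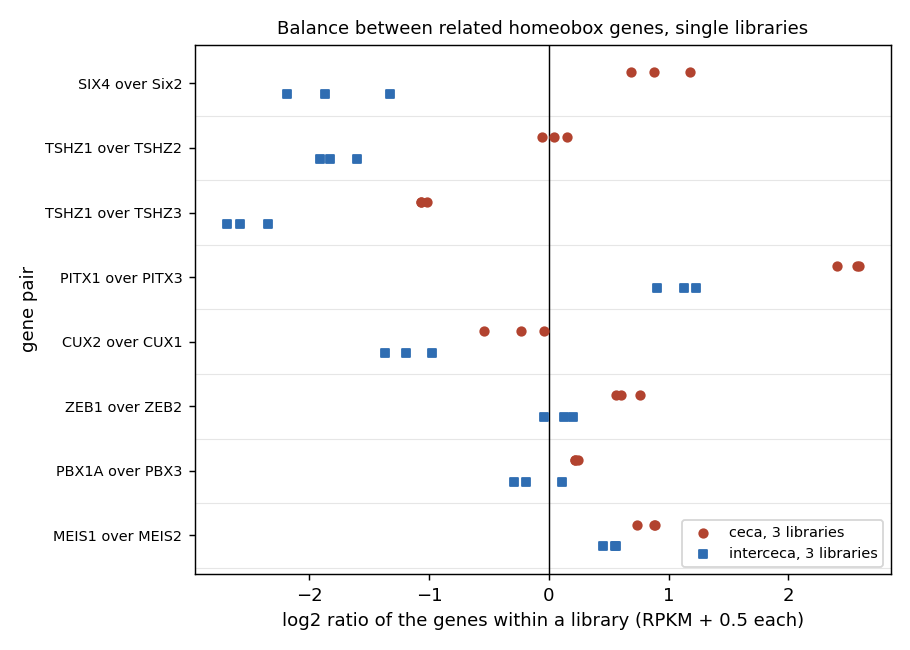
Log2 ratio of related homeobox genes within each library, from RPKM + 0.5, with ceca as circles above and interceca as squares below in each row. SIX4 over Six2 lies right of 0 in ceca and left of 0 in interceca, while MEIS1 over MEIS2 is above 0 in all 6 libraries. The gene with the higher log2 fold change is first in each pair, so ratios larger in ceca are built in.

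Comparing relatives by name, that is by a shared symbol prefix such as NKX, gave 18 pairs of tested genes in 12 families. In 3 pairs the relatives were called in opposite directions (among them SIX4 with Six2 and PITX1 with PITX3), in 10 pairs 1 gene was called and the other was not, in 3 both were called in the same direction, and in 2 neither was. The pairs called in the same direction include Nkx-6.2 with NKX1-2, both tested through interceca alone, which set that direction. Each of these was also paired with NKX2-6, which did not pass, among the 10 pairs with 1 gene called. A gene that did not pass is not shown to differ from its relative by that alone. In each ratio, here and above, the gene with the higher log2 fold change was put first. A larger ratio in ceca was therefore built in, and only its size is a result. For PITX1 over PITX3 the log2 ratio was 2.52 ± 0.10 in ceca and 1.09 ± 0.17 in interceca, and for ZEB1 over ZEB2 it was 0.64 ± 0.11 in ceca and 0.10 ± 0.12 in interceca (SD, n = 3 each; exact permutation p = 0.1 for both, the smallest without pairing). For MEIS1 over MEIS2 it was 0.84 ± 0.08 in ceca and 0.52 ± 0.06 in interceca (exact permutation p = 0.1).

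The 31 genes below the 1 RPKM limit rested on 4 to 171 reads over all 6 libraries (median 38). In 12 of them the tissues' libraries did not overlap, against 28.5% of all 2555 genes in the same range. Ceca lay below interceca in 11 of these and above in 1. That split was not counted over the 2555 genes and is not read as a trait of homeobox genes. With no limit on low values, limma called 1 higher in ceca (3.23% of the 31, against 3.33% of the 2555 genes) and 5 lower (16.1%, against 9.32%). All LIM and POU genes kept here were in this range.

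LHX1, a gene of the embryonic kidney and the head organiser, was the 1 higher in ceca. It had 9, 30 and 16 reads in ceca against 0, 4 and 7 reads in interceca, or 0.553, 1.66 and 0.937 RPKM in ceca against 0, 0.254 and 0.387 RPKM in interceca. Every ceca library was above every interceca library (adjusted p = 0.047 with no limit). Among the 5 lower were Emx1, LHX8, IRX6 and LMX1A. Emx1, a forebrain and urogenital gene, had 1, 7 and 2 reads in ceca against 13, 39 and 41 in interceca (adjusted p = 0.00771). It was lower in every ceca library than in any interceca library. LHX8 (5, 2 and 3 reads in ceca against 15, 11 and 9 in interceca, adjusted p = 0.0439), IRX6 (0, 1 and 1 reads in ceca against 2, 4 and 6 in interceca, adjusted p = 0.0154) and LMX1A (0, 1 and 0 reads in ceca against 7, 6 and 14 in interceca, adjusted p = 0.0298) were at a handful of reads. Most IRX6 libraries held 3 reads or fewer, so its call is uncertain. The authors' deposited table gave it an adjusted p of 0.0873. IRX6 and LMX1A were above 0 in every interceca library but not in every ceca library. Interceca libraries alone thus met the limit for keeping them, which favoured a lower call in ceca. For LHX1 the ceca libraries alone met it, which favoured a higher call.

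The BMP-responsive genes MSX1 and MSX2 were also low. MSX1 had 1, 3 and 0 reads in ceca against 4, 7 and 23 in interceca, interceca replicate 3 standing high (adjusted p = 0.0782 with no limit). MSX2 had 13, 38 and 36 reads in ceca against 8, 17 and 3 in interceca, overlapping (adjusted p = 0.142 with no limit). NKX2-5, a gene of the heart and the pyloric sphincter, had 1, 0 and 0 reads in ceca against 0, 3 and 4 in interceca. PRRX1, a gene of limb and head mesenchyme, had 0, 3 and 0 reads in ceca against 1, 2 and 7 in interceca, and EMX2 0, 1 and 0 reads in ceca against 1, 3 and 0 in interceca. At 3 reads or fewer in most libraries, differences in these 3 genes were not detectable at this depth. Further genes below the limit were ONECUT2, ONECUT3, EVX2, LHX6, LMX1B, DLX3 to DLX6, NKX1-1, NKX2-8, NKX6-3, POU2F3, POU4F3, POUV, IRX1, Alx-4, PAX2 and PAX3. LHX6 was the highest of them, at up to 1.1 RPKM in interceca. In 5 (ONECUT2, LHX6, DLX4, NKX1-1 and POU4F3) every ceca library was below every interceca library in RPKM, and none passed the test. ONECUT2 had 1, 1 and 1 reads in ceca against 2, 1 and 2 in interceca, and DLX4 0, 2 and 1 against 2, 4 and 2. Some libraries of the tissues were thus tied in reads for these genes, and only library size separated them.

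**Figure D4:**
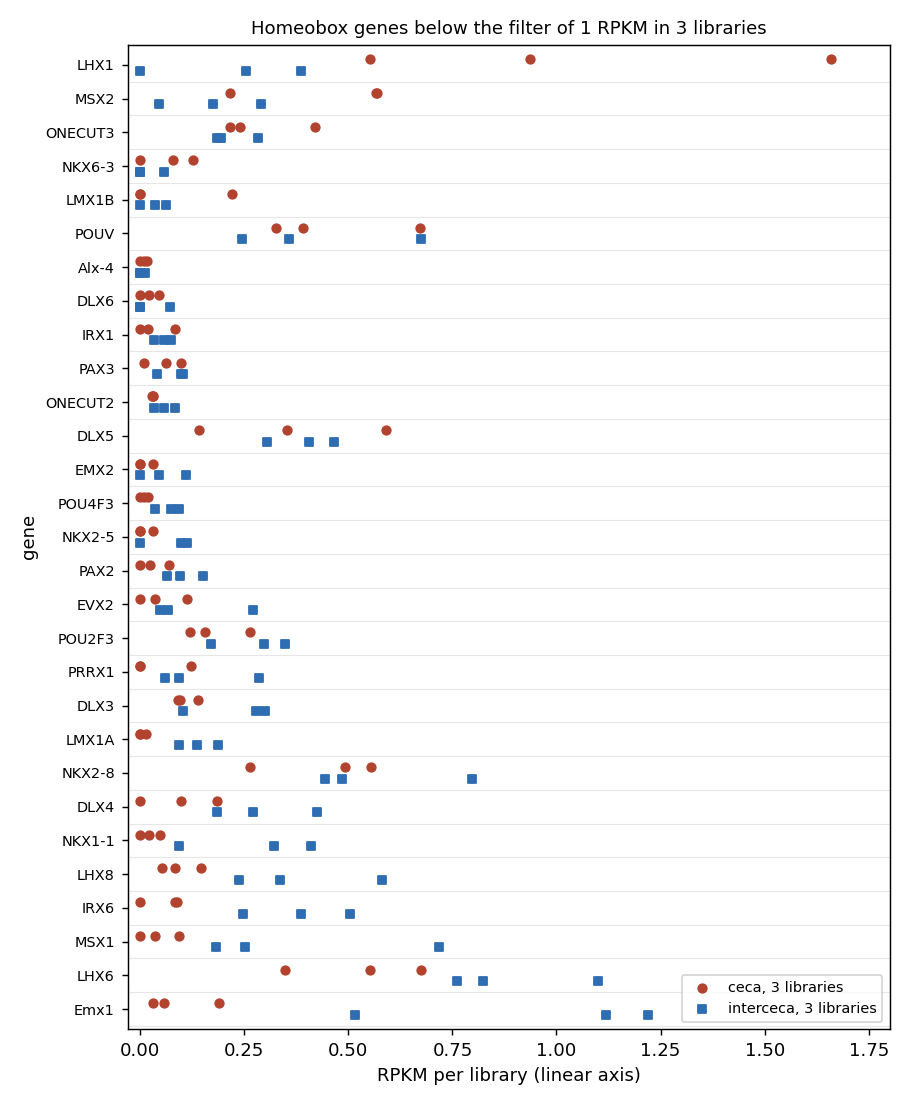
RPKM of 29 of the 31 homeobox genes below the limit of 1 RPKM in at least 3 libraries, on a linear axis, with ceca as circles above and interceca as squares below in each row, sorted by the difference of means. LHX1, at the top, reaches 1.66 RPKM in ceca, and Emx1, at the bottom, 1.22 RPKM in interceca.

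The authors' deposited table called 12 of the 65 genes higher in ceca and 17 lower at an adjusted p under 0.05, against 9.8% and 11.1% of the 17108 genes in that table. Of the 17108 genes, 14080 were above 0 in any library, and the rest could not be called. The 65 were kept by detection, so the shares are not on equal terms. Among genes beyond the 19 above, the authors' deposited table had LHX1 higher (adjusted p = 0.00317), and Emx1 (9.06e-09), LMX1A (2.13e-05), NKX1-1 (0.000162), MSX1 (0.00234), LHX8 (0.00401), POU4F3 (0.0161), BARX2B (0.0238) and PROX1 (0.0265) lower.

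In the gene order of the GRCg7b assembly, used for neighbours only, 16 of the 19 called genes could be placed, with 21 tested genes directly beside them. Of these, 6 were called in the same direction as the homeobox gene, 15 did not pass and none was called in the other direction, where 13.5% of all genes tested were higher and 14.1% lower. TSHZ1 lay between ZNF516 (log2 fold change 0.58 ± 0.11, adjusted p = 0.00543) and ZADH2 (0.85 ± 0.06, adjusted p = 3.85e-05), both higher in ceca. TSHZ3 lay beside ZNF536, a zinc-finger gene related to ZNF516, which averaged 5.05 RPKM in ceca and 1.13 RPKM in interceca (1.76 ± 0.15, adjusted p = 0.000121). PITX1 neighboured H2AFY (0.35 ± 0.05, adjusted p = 0.00118), and NKX1-2 neighboured OAT (-0.57 ± 0.09, adjusted p = 0.00193). SRBD1, beside Six2, was lower by less (-0.23 ± 0.07, adjusted p = 0.0331).

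Other homeobox genes outside the symbols above were found for 42 of 58 names, and 14 were tested. In ceca 2 of these were higher and 5 lower, and 7 did not pass, the count lower being 3 without interceca replicate 1 or 3. Of all genes tested, 13.5% were higher and 14.1% lower. MKX, a tendon gene of the TALE class, was at 6.41, 6.75 and 5.91 RPKM in ceca against 27.8, 28.7 and 26.9 RPKM in interceca (-2.05 ± 0.07, adjusted p = 2.38e-06). It was far lower in every ceca library. DBX2 (-0.76 ± 0.16, adjusted p = 0.00861) was lower as well. ADNP (0.20 ± 0.05, adjusted p = 0.0193) and CERS6 (0.58 ± 0.18, adjusted p = 0.0429) were higher, and their calls, like that of ISL1 (-0.66 ± 0.18, adjusted p = 0.0304), were lost in 4 or more of 6 leave-one-out fits.

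Partners of homeodomain proteins were found for 24 of 29 names, and 21 were tested. In ceca 5 of these were higher and 2 lower, and 14 did not pass, beside 13.5% higher and 14.1% lower of all genes tested. DACH1 and DACH2, nuclear partners in the network of EYA and sine-class proteins, went opposite ways. DACH1 was at 26.4, 21.7 and 24.2 RPKM in ceca against 11, 10.1 and 9.07 RPKM in interceca (1.22 ± 0.10, adjusted p = 7.66e-05). DACH2 was at 5.43, 4.66 and 5.15 RPKM in ceca against 10.5, 12.3 and 9.52 RPKM in interceca (-1.01 ± 0.11, adjusted p = 0.000407). The corepressor CTBP2 (0.46 ± 0.04, adjusted p = 0.000198), a partner of ZEB proteins, was higher, as was LDB1 (0.31 ± 0.06, adjusted p = 0.00829), which bridges LIM homeodomain proteins. The call of HDAC1 (-0.21 ± 0.05, adjusted p = 0.0218) was lost in 4 of 6 leave-one-out fits.

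Of 12 genes linked to the left mesentery, 9 were tested, 2 were higher in ceca, 1 was lower and 6 did not pass. For this list and the next, the shares over all genes tested were 13.5% higher and 14.1% lower. CDH2, N-cadherin, was the clearest (0.89 ± 0.06, adjusted p = 3.97e-05). The call of CXCL12 (0.33 ± 0.10, adjusted p = 0.04) was lost in 5 of 6 leave-one-out fits. Of 11 regulators known from the pyloric border that were found, 9 were tested. The test found 3 higher and 1 lower in ceca, with 5 not past it. FGF10 (1.43 ± 0.10, adjusted p = 4.12e-05), BMP4 (0.85 ± 0.08, adjusted p = 0.000139) and the Wnt-binding SFRP2 (0.46 ± 0.05, adjusted p = 0.00058) were the higher ones. SFRP1, of the same Wnt-binding family, was lower (-1.88 ± 0.20, adjusted p = 0.000299).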

How the data were processed

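The authors deposited RPKM, 1 file per library and a series table with the same columns, and all 6 library files equal it. Per the submitters' processing notes, the tools were STAR, HTSeq, edgeR and bcl2fastq and the build galGal4, in roles and versions not given in the sources used here, as are the annotation and strand setting. Counts of overlapping or antisense genes, and of near-identical copies, are therefore uncertain. Per the file headers, the series table also holds the authors' log2 fold change, raw and adjusted p-values and, on a −log10 scale, the adjusted p-value. Its RPKM show that the deposited log2 fold change runs ceca over interceca. A nameless row, the column total, was left out, and 0 columns belonged to other samples.

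The members and gene lists were chosen with earlier results of these data known. Genes at 1 RPKM or more in at least 3 libraries entered limma 3.58.1 (R 4.3.3) as log2(RPKM + 0.5) (trend, tissue as the only term, two-sided, residual degrees of freedom 4, prior 3.85). Benjamini-Hochberg adjustment covered all genes tested. Members past the threshold are named, except that a few genes of the members and lists are not reported here by name or drawn, though they stay in every fit and count. Values per library are given for those at 5 RPKM or more in the higher tissue or at least 2-fold changed, and for a list of genes with known roles. Of that list, NKX2-3, NKX3-2, IRX3, IRX5 and POU3F2 were not listed under these symbols, so their levels could not be assessed. From each other list up to 4 genes per direction with the smallest p are named. Of 199 list genes 159 were found, 3 under an older symbol.

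Each RPKM is a multiple of what 1 read is worth for that gene and library. Within a tolerance of 0.01 read, 100.0% of the 14080 genes above 0 gave whole reads, the smallest whole numbers that fit. Counting error alone lets a count of 0 stand for up to 3 reads, or 1.32e-05% to 1.91e-05% of a library. The fit was tested on simulated data.

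Labels give the tissues the same replicate numbers. Deviations from tissue means correlated across genes at 0.364, 0.227 and 0.213 between same-numbered libraries and at -0.238 to 0.0314 otherwise. A reading of the numbers as pairs rests on these data, since the labels state no shared origin. The main fit and the permutation tests did not use the numbers, and the replicate block alone took them as pairs. With the block 1879 genes were higher in ceca and 1888 lower, against 1439 and 1502 in the main fit. Alternatives were quantile normalization, median-of-ratios scaling, pseudocounts of 0.1 and 1, no filter on low values or one at 5 RPKM, no trend, the replicate block, each library left out and limma-voom on recovered reads, which called 1668 genes higher in ceca and 1544 lower. Tables and figures used scipy 1.17.1, pandas 2.3.3, numpy 2.4.6 and matplotlib 3.10.9 under Python 3.11.15.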

Additional observations from a re-analysis of the deposited data

How the results depend on the processing

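Over 15 alternatives, 27 of the 34 tested homeobox genes kept their call wherever they were tested, 17 of the 19 called ones among them. Of 498 single values, 485 stayed on the same side of the threshold in the same direction, 7 lost it (5 of PKNOX1 and 2 of ZEB2), 6 passed it newly and none reversed. With no filter, 13 homeobox genes were lower in ceca in place of 8, as 31 further genes were tested. When 1 library was left out, the count higher in ceca ranged over 10 to 11 and the count lower over 5 to 8, Nkx-6.2 and NKX1-2 falling below the filter when an interceca library was left out. Over all genes, leaving out 1 library gave 900 to 1286 genes higher, lowest without ceca replicate 3, and 999 to 1316 lower, lowest without interceca replicate 2. With the replicate block 13 homeobox genes were higher and 9 lower, the additional calls being HMBOX1, ZEB1 and TGIF1, and no other call of a homeobox gene changed. All 19 main calls were shared by the fits with other pseudocounts, other scalings, no trend, the block and limma-voom on recovered reads. Scaling moved the median of all genes by little, to 0.007 with median-of-ratios scaling and 0.022 with quantile normalization against 0.010. Depth limits the 31 genes below the filter, where a few reads decide each value.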
